A study of Mus musculus with 6 samples.

Results

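The *Zscan4*, *Usp17l*, *Obox*, *Tdpoz* and *Oog* families of multicopy genes, together with the single genes *Zfp352*, *Spz1* and *Tmem92*, were taken as a set of genes that are switched on in the 2-cell mouse embryo or in oocytes. Members were found by the start of their gene symbol, after the Ensembl identifiers of the deposited values had been paired with symbols of the GENCODE M21 annotation. This gave 22 members out of 22380 gene identifiers, and the *Tcstv* family, which the same rule names, was not analysed here. RNA was sequenced from mouse embryonic stem cells (mESC) with and without the TET dioxygenases, in 3 *Ctrl* and 3 *Tet iTKO* lines. The aim was to see how the transcriptome differs at day 6.5 after the start of 4-hydroxytamoxifen (4-OHT). The *Ctrl* lines carried CreERT2, a tamoxifen-inducible Cre, and the Gt(ROSA)26Sor tm1Ytchn/J reporter, in which Cre switches on H2B-EGFP, and the *Tet iTKO* lines carried the same alleles plus Tet1/2/3 fl/fl. Cells of both groups, controls included, spent 2.5 days in 1 µM 4-OHT and 4 days without it. The controls were therefore also exposed to active Cre. Each line came from a different blastocyst, was grown in 2i medium on mouse embryonic fibroblast feeders, and was sorted as live, CD326+, GFP+ and Thy1.2- cells. Replicates are therefore separate lines. The p-values rest on the spread between lines, which the test takes in part from other genes of similar level.

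In the mouse, the embryo first transcribes its own genome in earnest at the 2-cell stage. Genes of that stage, and the endogenous retrovirus MERVL, are silent in most mESC but come on together in rare 2-cell-like cells, which are known to pass in and out of that state in culture. ZSCAN4 proteins, with a SCAN domain and zinc fingers, act at telomeres, USP17L proteins are deubiquitinating enzymes, and OBOX proteins are homeodomain factors of oocytes and early embryos. TET enzymes oxidise 5-methylcytosine, the methylated base found mostly at CpG sites.

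All 3 *Zscan4* genes used here lie within 0.397 Mb of chromosome 7, and their coding sequences are close to identical. The coding sequence of *Zscan4c* has 1521 bases and differs from that of *Zscan4f* at 6 of them (99.6% identity), and each differs from *Zscan4d* at 35 (97.7% identity). A stretch of 90 coding bases that holds differences among all 3 copies is shown because reads can be told apart only where such bases fall. Capitals mark the 7 positions at which the copies differ, and the bases are coding bases 1002 to 1091 from the start codon, read 5′ to 3′ from the M21 transcripts. On GRCm38 the stretches are chr7:11009477-11009566 (plus strand) for *Zscan4c*, chr7:11162351-11162440 (minus strand) for *Zscan4d* and chr7:11401670-11401759 (plus strand) for *Zscan4f*.
Zscan4c: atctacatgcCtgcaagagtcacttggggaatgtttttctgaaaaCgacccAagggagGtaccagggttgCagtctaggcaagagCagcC
Zscan4d: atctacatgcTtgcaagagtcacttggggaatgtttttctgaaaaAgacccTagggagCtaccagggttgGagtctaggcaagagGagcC
Zscan4f: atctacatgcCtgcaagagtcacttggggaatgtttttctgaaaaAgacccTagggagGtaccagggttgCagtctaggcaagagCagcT

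The *Usp17l* genes are less alike. *Usp17lc* and *Usp17ld* share 98.4% of their aligned coding bases, and the other pairs share from 90.7% (*Usp17lb* and *Usp17le*) to 94.7% (*Usp17la* and *Usp17le*). *Usp17ld* and *Usp17lc* span 0.17 Mb, and *Usp17le*, *Usp17lb* and *Usp17la* lie together within 0.095 Mb further along chromosome 7. The 90 coding bases in which the 5 copies differ most, at 26 positions shown in capitals, are given to show how many more bases set these copies apart. On GRCm38 they are chr7:104861503-104861592 (plus strand) for *Usp17la*, chr7:104840319-104840408 (minus strand) for *Usp17lb*, chr7:103418870-103418959 (plus strand) for *Usp17lc*, chr7:103250264-103250353 (minus strand) for *Usp17ld* and chr7:104768429-104768518 (minus strand) for *Usp17le*.
Usp17la: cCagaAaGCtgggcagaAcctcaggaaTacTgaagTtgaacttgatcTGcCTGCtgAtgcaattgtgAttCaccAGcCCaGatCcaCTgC
Usp17lb: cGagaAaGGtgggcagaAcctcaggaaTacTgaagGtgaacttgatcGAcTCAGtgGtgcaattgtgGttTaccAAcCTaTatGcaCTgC
Usp17lc: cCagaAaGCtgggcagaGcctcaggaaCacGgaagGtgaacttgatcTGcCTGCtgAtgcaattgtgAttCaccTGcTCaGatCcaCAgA
Usp17ld: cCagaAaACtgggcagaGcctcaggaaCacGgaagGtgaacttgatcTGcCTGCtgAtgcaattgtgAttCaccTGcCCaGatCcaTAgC
Usp17le: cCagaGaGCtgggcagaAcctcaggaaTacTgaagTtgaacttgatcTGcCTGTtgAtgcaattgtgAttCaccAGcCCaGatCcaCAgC

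The sequences just upstream of the *Zscan4* and *Usp17l* genes are also shared, and are shown because these copies moved together in the values below. RefSeq promoters of GRCm38.p6 were matched for 18 of the 22 members. The 250 bases before the start of *Zscan4c*, *Zscan4d* and *Usp17lb* are printed 5′ to 3′, with capitals for the letters TATAAA, the core of a TATA box, and TGATTNAAT, part of a motif that DUX homeodomain proteins are known to bind. Each motif was searched on both strands, and the letters share no overlap in these windows. The windows are chr7:11005495-11005744 (plus strand), chr7:11166149-11166398 (minus strand) and chr7:104842584-104842833 (minus strand).
Zscan4c: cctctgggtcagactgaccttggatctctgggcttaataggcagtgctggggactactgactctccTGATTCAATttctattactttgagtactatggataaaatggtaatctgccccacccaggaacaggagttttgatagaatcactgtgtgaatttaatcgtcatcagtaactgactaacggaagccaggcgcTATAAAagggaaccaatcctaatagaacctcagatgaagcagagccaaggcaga
Zscan4d: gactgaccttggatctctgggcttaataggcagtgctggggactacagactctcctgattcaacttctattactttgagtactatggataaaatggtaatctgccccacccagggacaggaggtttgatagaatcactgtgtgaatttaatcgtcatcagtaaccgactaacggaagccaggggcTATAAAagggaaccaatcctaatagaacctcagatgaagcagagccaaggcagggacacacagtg
Usp17lb: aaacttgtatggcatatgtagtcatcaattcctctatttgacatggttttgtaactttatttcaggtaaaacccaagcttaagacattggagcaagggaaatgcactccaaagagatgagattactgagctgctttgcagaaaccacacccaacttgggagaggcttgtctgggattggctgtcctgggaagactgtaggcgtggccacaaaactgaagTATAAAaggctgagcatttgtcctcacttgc

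The promoters of *Zscan4c* and *Zscan4f* were identical at 226 of 227 aligned bases, and those of *Zscan4c* and *Zscan4d* at 232 of 238. Among *Usp17la*, *Usp17lb*, *Usp17lc* and *Usp17ld*, promoter identity ran from 92.1% to 97.3% of aligned bases. Identity was taken over the best-matching part of each pair of windows only, with 156 to 228 aligned bases in these *Usp17l* pairs. TATAAA stood in the promoters of all 3 *Zscan4* genes and of *Usp17lb*, *Usp17lc*, *Usp17ld*, *Oog2*, *Oog3* and *Obox3*, against 12.4% of all 32851 promoters in the table. TGATTNAAT stood in those of *Zscan4c*, *Zscan4f*, *Oog2* and *Oog4*, against 0.658% of all promoters. The windows were poor in CpG sites, with 3 in each *Zscan4* promoter and 0 or 1 in those of *Usp17la*, *Usp17lb*, *Usp17lc* and *Usp17ld*. The median of all promoters was 6, and 49.6% of them had 5 or fewer. Promoters of the members at 0 in all lines held from 0 to 2. A match of letters is a description of the sequence, and whether a protein binds there was not measured.

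The libraries held an estimated 3.665 to 5.101 M reads on genes, with the most in *Tet iTKO* replicate 2, and after scaling by size factors their normalized counts summed to between 3964824 and 4219665. The deposited counts are whole-gene values, in which *Tet1* had 696, 682 and 716 normalized counts per *Ctrl* line, against 787, 895 and 753 per *Tet iTKO* line. *Tet2*, at 170 to 268 in all lines, overlapped between the groups, and *Tet3* had 28, 13 and 13 against 10, 3 and 3. Such values do not set the deleted exons apart from the rest of the gene. *Tet iTKO* libraries had more genes above 0, with 14024 to 14363 against 13431 to 13539 in *Ctrl*. Fibroblast collagen genes were higher too, and the 7 markers of the feeder list summed to 272 to 290 normalized counts in *Ctrl* and 474 to 552 in *Tet iTKO* lines. This came from collagen genes, of which *Col1a1* had 181, 170 and 150 against 304, 281 and 349, whereas *Thy1*, the gene of the sorting marker, had 30, 46 and 41 against 47, 35 and 23, and *Dcn*, *Lum* and *Postn* had at most 15 in any line. The part of feeder cells in the results below was not tested. The lines of both groups had the genes of pluripotent cells, with *Pou5f1* between 4318 and 5804 normalized counts.

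Of the 22 members, 12 had a value above 0 in some line, and for 9 of these every *Tet iTKO* line lay above every *Ctrl* line. These were *Zscan4c*, *Zscan4d*, *Zscan4f*, the 5 *Usp17l* genes and *Tmem92*. For *Obox6* the *Tet iTKO* lines all lay below the *Ctrl* lines, and for *Tdpoz3* and *Zfp352*, at 0 to 4 normalized counts, the groups overlapped. Over all 16064 genes above 0 in some line, the groups did not overlap with *Tet iTKO* higher in 17.3% and lower in 15.7%, and over the 10524 with a mean of at least 10 these shares were 21.2% and 22.9%. Because the RNA came from whole sorted populations, fewer cells of a type and less RNA per cell cannot be told apart.

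**Figure D1:**
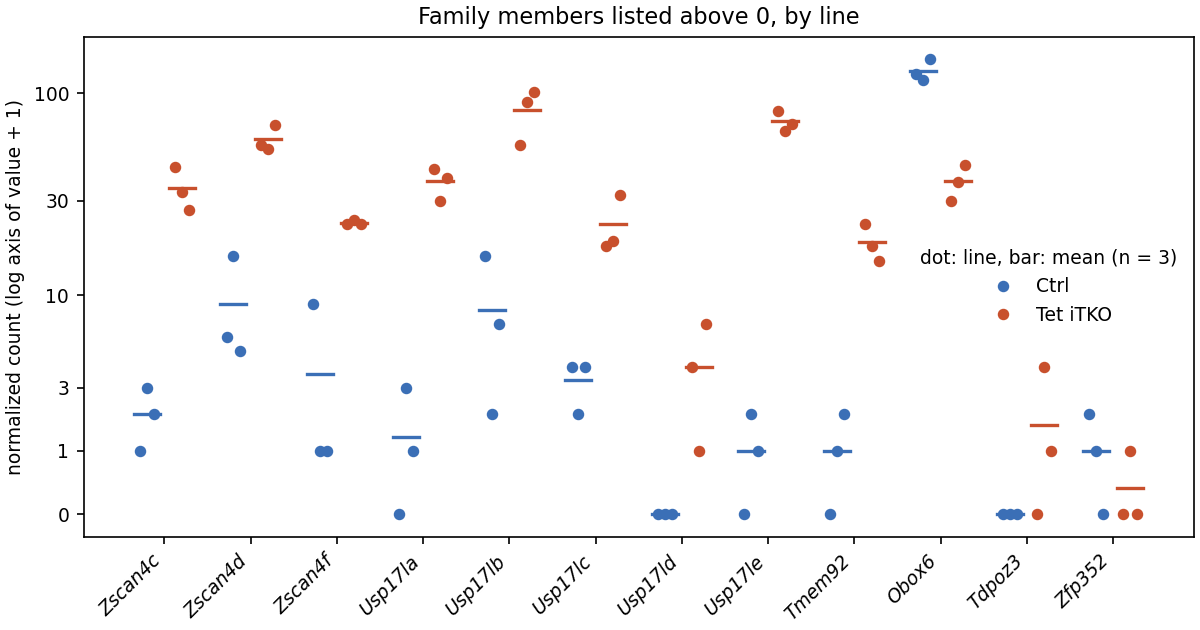
Normalized counts of the 12 members listed above 0, for each of 3 *Ctrl* (blue) and 3 *Tet iTKO* (orange) lines, on a log axis of the value plus 1, with a bar at each group's mean. The *Tet iTKO* dots lie above all *Ctrl* dots for the *Zscan4* and *Usp17l* genes and *Tmem92*, below them for *Obox6*, and mix with them for *Tdpoz3* and *Zfp352*.

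The 8 members with a mean of at least 10 normalized counts were tested with limma on the log2 of the normalized count plus 1, and p-values were adjusted by the Benjamini-Hochberg method over all 10524 genes. At an adjusted p under 0.05 and a log2 change of at least 1 in size, 7 were higher and 1 was lower in *Tet iTKO* mESC. Of all genes tested, 4.95% were higher by this measure and 1.30% were lower, which is 521 and 137 genes, or 353 and 253 after quantile normalization. Among the 2705 genes with a mean from 10 to under 50, where most of the members lie, 14.5% were higher and 2.99% were lower. The members' median log2 change was 3.14, beside 0.01 for all genes tested and 0.24 for those with a mean from 10 to under 50. The members were filtered on a mean to which the higher group gave most of the reads, so that this median speaks only for the 8 that passed. The added 1 lowers the fold changes of genes with few reads. As the log2 values are averaged over lines, a fold change can lie above as well as below the ratio of summed counts.

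**Figure D2:**
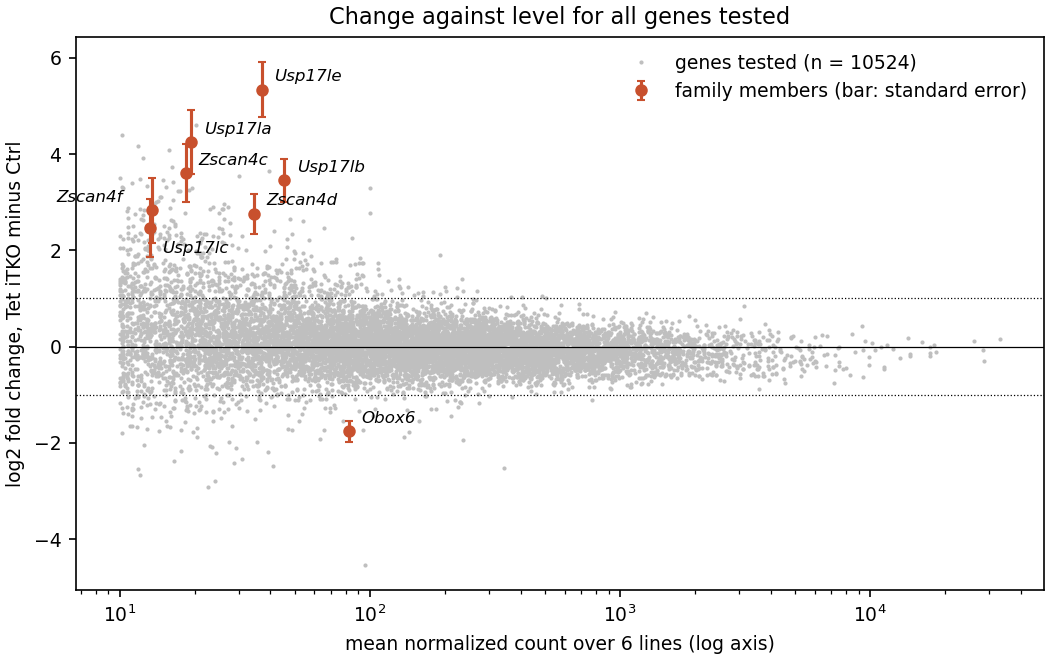
Log2 fold change (*Tet iTKO* minus *Ctrl*) against the mean normalized count over the 6 lines (log axis) for the 10524 genes tested, in grey, and the 8 members tested, in orange with their standard errors. The 7 *Zscan4* and *Usp17l* genes tested lie between 2.46 (*Usp17lc*) and 5.34 (*Usp17le*), and *Obox6* lies at -1.76, while dotted lines mark a log2 fold change of 1 in size.

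*Zscan4c* (ENSMUSG00000054272.4, chromosome 7 of GRCm38 from 11005745 to 11010547) had 1, 3 and 2 normalized counts per *Ctrl* line, against 44, 33 and 27 per *Tet iTKO* line. It was at the level of single reads in all controls and at 27 or more in every *Tet iTKO* line. Taken over the lines, the counts stood in a ratio of 17.3, with an exact 95% counting interval of 7.70 to 48.3. The log2 change was 3.60 (standard error, SE, 0.61, limma adjusted p = 1.14e-05).

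*Zscan4d* (ENSMUSG00000090714.1, chromosome 7 from 11161374 to 11166159) was the copy with the most reads. It had 6, 16 and 5 normalized counts per *Ctrl* line, against 56, 54 and 70 per *Tet iTKO* line, and even the highest control lay far below the lowest *Tet iTKO* line. The counts stood in a ratio of 6.67 (exact 95% counting interval 4.43 to 10.4), or 10.9 without *Ctrl* replicate 2, and the log2 change was 2.76 (SE 0.42, limma adjusted p = 1.94e-06).

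*Zscan4f* (ENSMUSG00000070828.3, chromosome 7 from 11397915 to 11402318) had 9, 1 and 1 normalized counts per *Ctrl* line, against 23, 24 and 23 per *Tet iTKO* line. The 3 *Tet iTKO* lines were nearly equal, and *Ctrl* replicate 1 stood above the other controls. Its log2 change of 2.83 (SE 0.67, limma adjusted p = 0.00107) was 3.60 when *Ctrl* replicate 1 was left out. The counts stood in a ratio of 6.36 (exact 95% counting interval 3.35 to 13.3), and of 23.3 between the group means without that control.

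As a family, the *Zscan4* genes summed to 16, 20 and 8 normalized counts per *Ctrl* line, against 123, 111 and 120 per *Tet iTKO* line. The ratio of the sums was 8.05 (exact 95% counting interval 5.87 to 11.3). *Zscan4d* gave 61.4% of the *Ctrl* sum and 50.8% of the *Tet iTKO* sum, with exact 95% binomial intervals of 45.5% to 75.6% and 45.5% to 56.2%, and its shares in single lines overlapped between the groups.

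*Usp17le* (ENSMUSG00000043073.8, chromosome 7 from 104768049 to 104777470) had 0, 2 and 1 normalized counts per *Ctrl* line, against 82, 66 and 71 per *Tet iTKO* line. It went from next to nothing to a level that every *Tet iTKO* line shared. The counts stood in a ratio of 73.0 (exact 95% counting interval 24.7 to 357), which was 146 without *Ctrl* replicate 2 and 48.7 without *Ctrl* replicate 1. Its log2 change of 5.34 (SE 0.57, limma adjusted p = 2.23e-09) ranked 1 among the 10524 genes tested.

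*Usp17la* (ENSMUSG00000054568.7, chromosome 7 from 104857009 to 104862667) had 0, 3 and 1 normalized counts per *Ctrl* line, against 43, 30 and 39 per *Tet iTKO* line. Like *Usp17le*, it was at or under 3 in all controls. The counts stood in a ratio of 28.0 (exact 95% counting interval 10.6 to 105), which was 74.7 without *Ctrl* replicate 2 and 18.7 without *Ctrl* replicate 1. The log2 change was 4.25 (SE 0.67, limma adjusted p = 3.94e-06), which ranked 4 among all genes tested.

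*Usp17lb* (ENSMUSG00000062369.2, chromosome 7 from 104840257 to 104842603) was the *Usp17l* gene with the most reads in both groups. It had 16, 2 and 7 normalized counts per *Ctrl* line, against 56, 91 and 101 per *Tet iTKO* line, so that the controls were uneven but all below the *Tet iTKO* lines. The log2 change was 3.45 (SE 0.45, limma adjusted p = 1.38e-07). It was 4.05 without *Ctrl* replicate 1 and 2.80 without *Ctrl* replicate 2.

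*Usp17lc* (ENSMUSG00000058976.4, chromosome 7 from 103415072 to 103419880) rose least of the *Usp17l* genes tested on the log2 scale, although this order among the copies was not tested. It had 4, 2 and 4 normalized counts per *Ctrl* line, against 18, 19 and 32 per *Tet iTKO* line, and the log2 change was 2.46 (SE 0.61, limma adjusted p = 0.00159). *Usp17ld* (ENSMUSG00000057321.2, chromosome 7 from 103249737 to 103252505), its nearest relative, had 0 in all *Ctrl* lines, against 4, 1 and 7 per *Tet iTKO* line. By the exact 95% counting interval, the *Ctrl* sum was at most 0.360 of the *Tet iTKO* sum, and the mean of 2 normalized counts over all lines kept the gene out of the test.

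Summed, the *Usp17l* genes had 20, 9 and 13 normalized counts per *Ctrl* line, against 203, 207 and 250 per *Tet iTKO* line, a ratio of 15.7 (exact 95% counting interval 11.5 to 22.0). *Usp17le* gave 0%, 22.2% and 7.69% of it per *Ctrl* line, against 40.4%, 31.9% and 28.4% per *Tet iTKO* line, and *Usp17lc* gave 20%, 22.2% and 30.8% against 8.87%, 9.18% and 12.8%. Neither of these shares overlapped between the groups, whereas those of *Usp17la* (0%, 33.3% and 7.69% against 21.2%, 14.5% and 15.6%) and *Usp17lb* (80%, 22.2% and 53.8% against 27.6%, 44.0% and 40.4%) did. With 3 lines against 3 the exact permutation test can give no p below 0.1, and the *Ctrl* shares rest on 9 to 20 normalized counts a line, so that a difference in makeup is not shown.

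**Figure D3:**
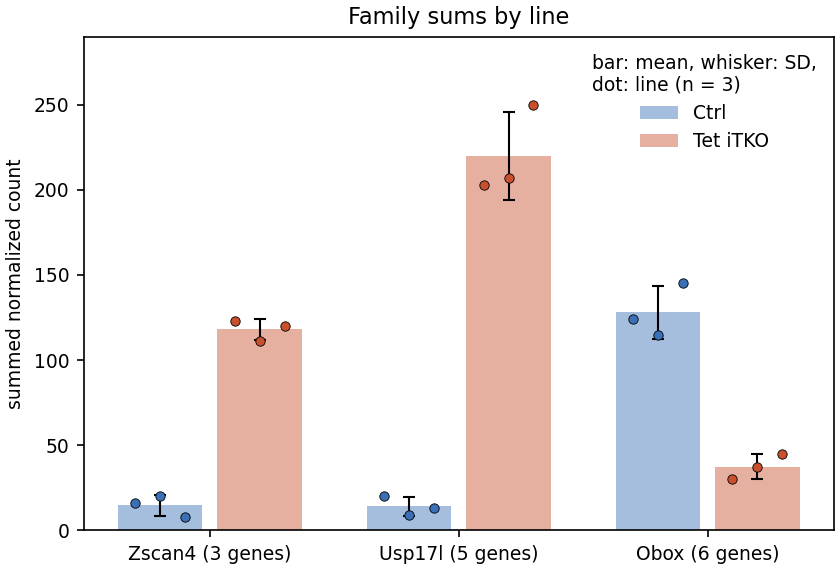
Summed normalized counts of the 3 *Zscan4*, 5 *Usp17l* and 6 *Obox* genes used here, with bars for the mean, whiskers for the SD and dots for the 3 lines of each group. The *Zscan4* sum went from 8 to 20 in *Ctrl* to 111 to 123 in *Tet iTKO* lines and the *Usp17l* sum from 9 to 20 to between 203 and 250, while the *Obox* sum, which is *Obox6* alone, went from 115 to 145 down to 30 to 45.

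*Tmem92* (ENSMUSG00000075610.3, chromosome 11 from 94777217 to 94782703) encodes a transmembrane protein and is known as a gene of 2-cell-like cells. It had 0, 1 and 2 normalized counts per *Ctrl* line, against 23, 18 and 15 per *Tet iTKO* line, a ratio of 18.7 (exact 95% counting interval 6.07 to 93.2), which was 37.3 without *Ctrl* replicate 3 and 12.4 without *Ctrl* replicate 1. All *Tet iTKO* lines lay well above all controls. Its mean of 9.83 was just under the minimum of 10, and with a minimum of 3, at which 6.06% of the 12174 genes tested were higher, its log2 change was 3.42 (SE 0.68, limma adjusted p = 0.000152). Of the windows of 50 bases in its transcript, 98.0% occur in no other gene.

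*Obox6* (ENSMUSG00000041583.6, chromosome 7 from 15833241 to 15839678) went the other way. This homeobox gene had 124, 115 and 145 normalized counts per *Ctrl* line, against 30, 37 and 45 per *Tet iTKO* line, or 29.2% of its *Ctrl* mean. Every *Tet iTKO* line had fewer than the lowest control had, by a wide margin. The log2 change was -1.76 (SE 0.23, limma adjusted p = 8.91e-08), which ranked 27 from the lowest among all genes tested. *Obox1*, *Obox2*, *Obox3*, *Obox5* and *Obox7* were at 0 in all 6 lines. The coding sequence of *Obox6* shares 75.7% to 80.4% of aligned bases with theirs and no window of 50 bases.

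The other members were hardly measured. *Zfp352*, a zinc finger gene with high expression in the 2-cell embryo, had 2, 1 and 0 normalized counts per *Ctrl* line, against 0, 1 and 0 per *Tet iTKO* line, with 92.9% of its windows of 50 bases unique. *Tdpoz3*, of a family with TRAF and BTB/POZ domains, had 0 in all *Ctrl* lines, against 0, 4 and 1 per *Tet iTKO* line. *Tdpoz4*, the oogenesin genes *Oog2*, *Oog3* and *Oog4*, and *Spz1*, a transcription factor gene of the testis, were at 0 in all 6 lines, as were the 5 *Obox* genes other than *Obox6*. A value of 0 allows up to 3 counts, so a low level of these 10 genes was not detectable at this depth. Their transcripts hold unique windows of 50 bases, from 37.0% in *Obox2* to all of them in *Spz1*.

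How much of a copy can be read at all differs among the members, because the authors kept only reads that align to 1 place. In the M21 transcripts, 4.66% of the windows of 50 bases in *Zscan4f* occur in no other gene, against 14.5% in *Zscan4c* and 50.4% in *Zscan4d*. With windows of 100 bases, nearer to the length of a read pair, these shares were 10.5%, 27.2% and 70.4%. For the *Usp17l* genes the shares at 50 bases were 48.9% (*Usp17ld*), 55.3% (*Usp17lc*), 69.2% (*Usp17le*), 78.2% (*Usp17lb*) and 79.6% (*Usp17la*). The values of single *Zscan4* copies are thus uncertain, and each family sum adds the reads that fit a single listed copy.

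The order of the levels depends on this. Per 1000 bases of transcript, the mean normalized counts in *Tet iTKO* mESC were 53.1 for *Usp17lb*, 38.7 for *Usp17le*, 26.4 for *Zscan4d*, 15.2 for *Zscan4c*, 14.1 for *Usp17la*, 12.8 for *Zscan4f*, 9.57 for *Usp17lc* and 9.14 for *Tmem92*. Per 1000 unique windows of 50 bases, *Zscan4f* came to 281 and *Zscan4c* to 108, ahead of *Usp17lb* at 70.1, *Usp17le* at 57.4 and *Zscan4d* at 53.5. *Zscan4f* rests on 83 such windows. In *Ctrl*, *Obox6* stood above these genes on the first scale, at 95.2 per 1000 bases, and it fell to 27.8 in *Tet iTKO* mESC.

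**Figure D4:**
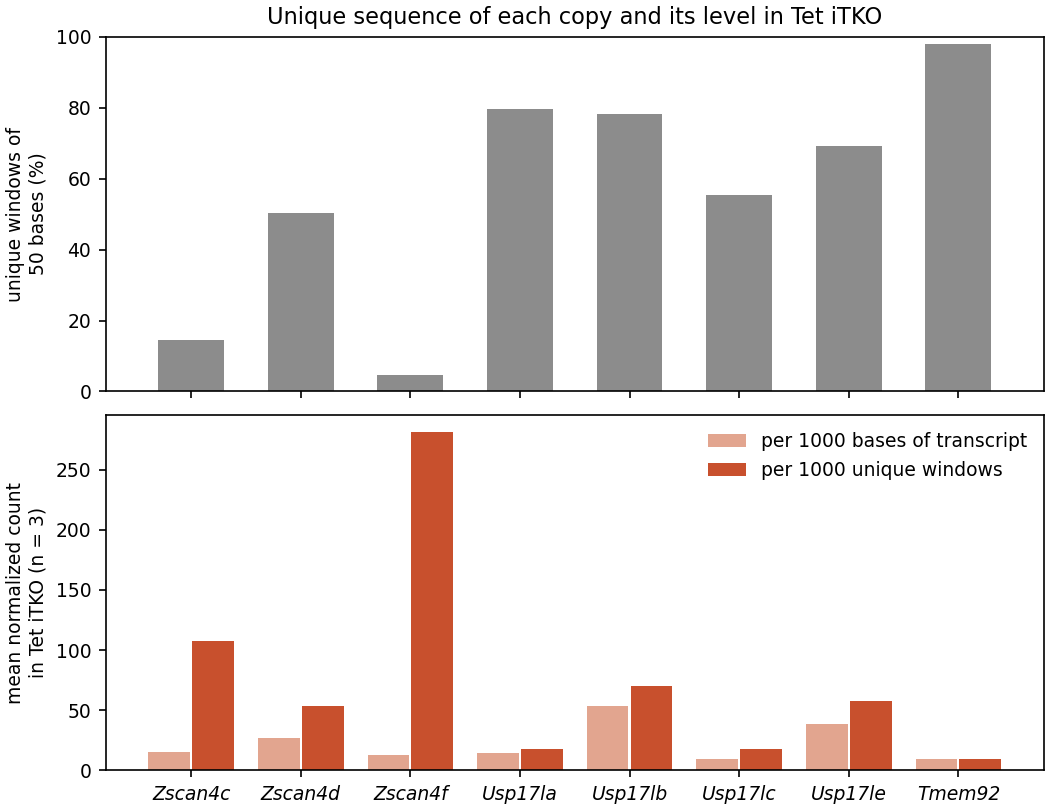
Share of windows of 50 bases that occur in no other gene of the M21 transcripts (upper bars, %), and mean normalized count in *Tet iTKO* lines (lower bars, n = 3) per 1000 bases of transcript and per 1000 unique windows, for the 8 members that were higher at a mean of at least 3. *Zscan4f*, with 4.66% unique windows, has 12.8 per 1000 bases and 281 per 1000 unique windows, whereas *Tmem92* has about the same value on both scales.

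Factors known to switch the 2-cell-like state on or off were read out next, from a list of 6 activators and 31 repressors. The transcription factor DUX is a known activator of *Zscan4*, MERVL and *Usp17l* genes, and its listed copy *Duxf3*, which belongs to a repeat array, had 1, 0 and 0 normalized counts per *Ctrl* line, against 0, 1 and 3 per *Tet iTKO* line. At this depth no difference in *Duxf3* was detectable. Of the 4 activators tested, 1 was higher and 2 were lower at an adjusted p under 0.05, where 16.4% of all genes were higher and 18.4% lower. *Nelfa*, a subunit of the negative elongation factor, had 621, 656 and 678 normalized counts per *Ctrl* line, against 876, 942 and 860 per *Tet iTKO* line, with a log2 change of 0.45 (limma adjusted p = 6.03e-06). *Dppa4*, which with *Dppa2* is known to act ahead of *Dux*, had 934, 1001 and 934 against 762, 680 and 736, a log2 change of -0.40 (limma adjusted p = 3.21e-05). *Dppa2* had a log2 change of -0.11 (limma adjusted p = 0.218). *Tbx3* had a log2 change of -0.24 (limma adjusted p = 0.0252), which with quantile normalization was -0.15 (limma adjusted p = 0.167). It was -0.59 (limma adjusted p = 7.24e-07) after correction for GC content and length. Rescaling by trimmed means of M values gave -0.29 (limma adjusted p = 0.00799).

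Of the 31 repressors tested, 4 were higher and 3 were lower at an adjusted p under 0.05, beside 16.4% and 18.4% of all genes. None of these changed by 1 or more on the log2 scale, and the median log2 change of the 31 was 0.04. *Setdb1*, a histone H3K9 methyltransferase that silences endogenous retroviruses, had 433, 381 and 363 normalized counts per *Ctrl* line, against 494, 543 and 609 per *Tet iTKO* line (log2 change 0.48, limma adjusted p = 9.73e-05). *Ncl*, the gene of nucleolin, which with LINE1 RNA is known to hold *Dux* silent, had a log2 change of 0.27 (limma adjusted p = 2.71e-06). *Zmym2*, the gene of a zinc finger protein of corepressor complexes, had 227, 135 and 158 normalized counts per *Ctrl* line, against 222, 225 and 215 per *Tet iTKO* line, so that the groups overlapped. Its log2 change of 0.38 (limma adjusted p = 0.0397) had a limma adjusted p of 0.0712 after rescaling by trimmed means of M values. *Dnmt1*, the maintenance DNA methyltransferase, had 0.21 (limma adjusted p = 0.00877), a direction that turned to -0.18 (limma adjusted p = 0.0268) after correction for GC content and length. On the lower side, *Kdm1a*, a histone demethylase, had -0.27 (limma adjusted p = 0.00727), *Hdac1*, a histone deacetylase, had -0.22 (limma adjusted p = 0.00159) and *Uhrf1*, a partner of DNMT1, had -0.15 (limma adjusted p = 0.0247). With quantile normalization these 3 did not pass, at limma adjusted p of 0.0618, 0.105 and 0.82. After correction for GC content and length they were still lower, at -0.36, -0.17 and -0.37 (limma adjusted p = 0.000658, 0.0181 and 4.24e-07). They also passed after rescaling by trimmed means of M values (limma adjusted p = 0.00197, 0.000186 and 0.0033). *Trim28*, a corepressor, had between 10836 and 11228 normalized counts in all lines, with a log2 change of -0.002 (limma adjusted p = 0.977). This was -0.47 (limma adjusted p = 3.25e-13) after correction for GC content and length. With quantile normalization it was 0.15 (limma adjusted p = 0.000933).

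**Figure D5:**
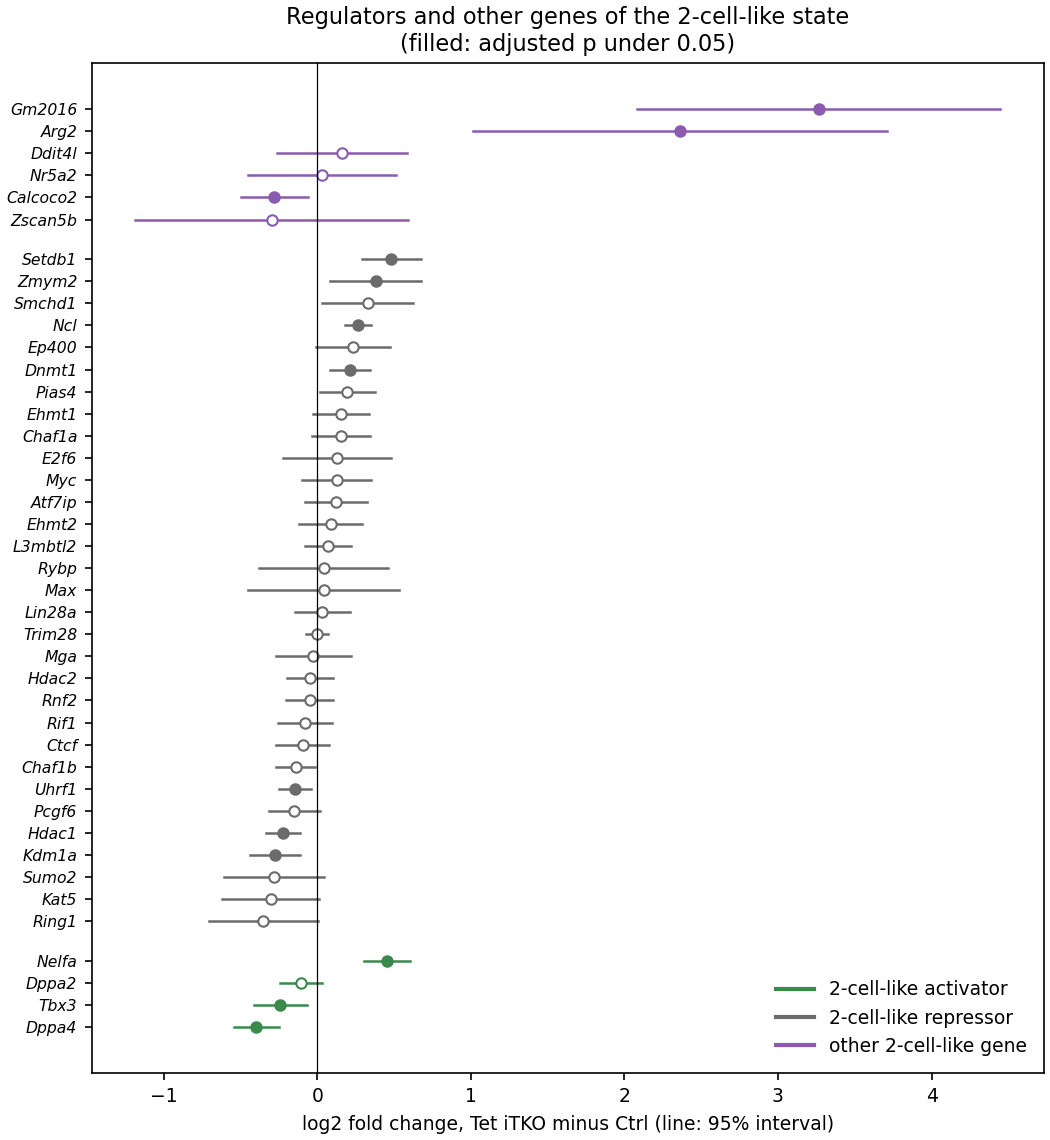
Log2 fold change (*Tet iTKO* minus *Ctrl*) with its 95% interval for the tested activators (green) and repressors (grey) of the 2-cell-like state and for other genes of that state (purple), with filled dots for an adjusted p under 0.05. The regulators lie between -0.40 and 0.48, and *Gm2016* at 3.26 and *Arg2* at 2.36 lie far to the right of them.

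Further genes of the 2-cell-like state, outside the families, were mostly too low to test. Of 19 such genes used here, 16 were above 0 and 6 were tested. At an adjusted p under 0.05, 2 were higher and 1 was lower, beside 16.4% and 18.4% of all genes. *Gm2016*, one of a set of similar gene models, had 5, 1 and 3 normalized counts per *Ctrl* line, against 41, 25 and 38 per *Tet iTKO* line (log2 change 3.26, limma adjusted p = 3.08e-05). *Arg2*, the gene of arginase 2, had 4, 1 and 5 against 11, 30 and 21 (log2 change 2.36, limma adjusted p = 0.00511), and without *Tet iTKO* replicate 2 its mean fell under the minimum for the test. *Calcoco2*, a receptor gene of selective autophagy, had a log2 change of -0.28 (limma adjusted p = 0.038), and -0.14 (limma adjusted p = 0.357) after correction for GC content and length. In 6 of the 16 genes every *Tet iTKO* line lay above every *Ctrl* line, beside 17.3% of all genes above 0. The nuclear body gene *Sp110* was among these 6, with 1, 0 and 0 normalized counts per *Ctrl* line, against 15, 7 and 4 per *Tet iTKO* line.

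Markers of other cell types were read out beside the members. Of the 4 feeder fibroblast markers tested, *Col1a1*, *Col1a2* and *Col3a1* were higher, with log2 changes of 0.89, 1.17 and 1.36 (limma adjusted p = 4.11e-07, 0.000333 and 0.000304), and *Thy1* had -0.19 (limma adjusted p = 0.692). After correction for GC content and length *Col1a1* no longer passed, at 0.27 (limma adjusted p = 0.109). Trophoblast markers summed to 37 to 44 normalized counts in *Ctrl* and 49 to 65 in *Tet iTKO* mESC, where *Hand1* went from 0 in all controls to 6, 5 and 6, and neither of the 2 markers tested passed. Primitive endoderm markers summed to 6 to 15 against 16 to 35, with *Gata4* at 2, 7 and 10 against 21, 12 and 27 (log2 change 1.64, limma adjusted p = 0.0302). *Gata4* did not pass after the GC content and length correction (limma adjusted p = 0.108) or quantile normalization (1.09, limma adjusted p = 0.151). Oocyte markers summed to 212 to 235 against 188 to 247, nearly all of it *Zp3*, while *Zp1*, *Bmp15*, *Figla* and *Nlrp5* were at 0 in all lines. Of the testis markers, *Prm1*, *Prm2*, *Tnp1* and *Acrv1* were at 0 in all lines, and *Dazl*, an RNA-binding protein gene of germ cells, had 191, 264 and 240 against 113, 52 and 82 (log2 change -1.54, limma adjusted p = 4.26e-08). *Ddx4*, an RNA helicase gene of germ cells, had 84, 99 and 37 against 85, 79 and 110 (log2 change 0.41, limma adjusted p = 0.209). Of the 7 genes of pluripotent cells, an adjusted p under 0.05 was reached by 3 in each direction, beside 16.4% (higher) and 18.4% (lower) of all genes. Of these 6, *Esrrb*, *Klf4*, *Nanog* and *Zfp42* did not pass after the GC content and length correction (limma adjusted p = 0.616, 0.362, 0.0849 and 0.273), where *Esrrb* turned from 0.29 to -0.04, and *Pou5f1* did not after quantile normalization (limma adjusted p = 0.202). *Epcam*, the gene of the sorting marker CD326, was higher, with a log2 change of 0.45 (limma adjusted p = 4.53e-06). It also passed after the GC content and length correction, quantile normalization and rescaling by trimmed means of M values (limma adjusted p = 1.02e-05, 3.93e-07 and 2.13e-05). The part of such cells in the members' values was not tested.

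Genes beside the members were read out as well, with the 3 nearest listed genes on each side of each cluster. Of these 54 genes, 25 were above 0 and 9 were tested, and an adjusted p under 0.05 was reached by 2 that were higher and 2 that were lower, beside 16.4% and 18.4% of all genes. All 6 neighbours of the *Zscan4* cluster and all 12 of the *Usp17l* clusters, genes of vomeronasal and olfactory receptors and *Nlrp4b*, were at 0 in all lines. Beside *Tmem92*, *Xylt2* had 147, 115 and 121 normalized counts per *Ctrl* line, against 200, 186 and 190 per *Tet iTKO* line (log2 change 0.59, limma adjusted p = 0.00151), and *Col1a1*, the collagen gene of the feeder list, is its nearest listed gene on the other side. Beside *Obox6*, *Selenow* had 780, 751 and 789 against 587, 628 and 657 (log2 change -0.31, limma adjusted p = 0.00132). Beside the *Tdpoz* genes, *S100a10* had 275, 253 and 263 against 155, 150 and 145 (log2 change -0.81, limma adjusted p = 3.26e-06). After the GC content and length correction *S100a10* still passed (-0.35, limma adjusted p = 0.0323), while *Xylt2*, *Col1a1* and *Selenow* did not (limma adjusted p = 0.788, 0.109 and 0.635) and *S100a11*, next to *S100a10*, did (0.48, limma adjusted p = 0.00929).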

How the data were processed

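The authors made Smart-Seq2 libraries, which keep no strand and tag no molecules, and sequenced paired reads of 50 bases. Reads were aligned with STAR, keeping unique alignments, and counted per gene with HTSeq 0.7.1 in its stranded mode. This mode leaves out reads that align to the other strand of a gene. Because the libraries keep no strand, reads of a gene and of an overlapping antisense gene cannot be told apart. The submitters' processing notes name the mm9 build, DESeq2 1.26.0 and R 3.5.2, and the annotation was not given in the sources used here. The deposited values, in the unit score, are counts that the authors divided by DESeq2 size factors and rounded to whole numbers. Positions are those of GRCm38 in GENCODE M21, a later build than that of the alignment.

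Groups follow the sample titles. Genes with a mean of at least 10 were compared on log2(value + 1) with limma 3.58.1 in R 4.3.3 (eBayes with a variance trend, two-sided, Benjamini-Hochberg adjustment over all genes), since rounded normalized values are not read counts. Single members were also compared by exact permutation, which gave p = 0.1, the smallest possible with 3 lines against 3, for the 10 members whose groups did not overlap. Counting intervals treat normalized counts as reads and, like the floor of 3 counts, cover counting error only, as PCR copies of 1 molecule are counted as separate reads. The reads per library were estimated from the whole numbers that rounding skips. Replicates differed by 2.60 to 3.49 times the sampling noise, so none was counted as a copy. The limma step was tested on simulated data. Unique windows and coding identities were computed in Python 3.11.15 with Biopython 1.88.

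The members, gene lists and tests were chosen with earlier results of these data known. Named genes are all members above 0, and, of each list, up to 4 genes with the lowest adjusted p under 0.05 in each direction, and called neighbours. *Duxf3*, *Dppa2*, *Trim28*, *Sp110*, *Thy1*, *Hand1*, *Ddx4*, *S100a11* and the markers at 0 were named after their values were seen. Alternatives were pseudocounts of 0.5 and 4, minimum means of above 0, 3 and 50, quantile normalization, rescaling by trimmed means of M values, no variance trend, a replicate block, a loess correction for GC content and length with and without that block, fold thresholds of 0.5 and none, and fits without each line. Ratios without each line were added after the data were seen. Further annotated copies of the families, 1 of 6 listed activators and 9 of 28 other 2-cell-like genes were not analysed here.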

Additional observations from a re-analysis of the deposited data

How the results depend on the processing

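The 8 members tested kept their direction and an adjusted p under 0.05 in every alternative fit that included them. These were 128 pairs of a member and a fit, with a largest limma adjusted p of 0.032 (*Zscan4f*). Without the variance trend, the limma adjusted p of the 8 members ran from 0.00532 (*Usp17le*) to 0.032 (*Zscan4f*). A minimum mean of 50 left 0 members called higher, since *Obox6* alone was then tested. In fits that leave out 1 line each, the number of members called higher ran from 6 to 8, as *Usp17lc* or *Tmem92* crossed the minimum mean of 10. The log2 ratio of the *Usp17l* sums was 3.97, and 4.60 without *Usp17lb*, its member with the highest mean. In the absence of any 1 line it lay between 3.74 and 4.32, against 2.71 to 3.30 for *Zscan4* and -1.93 to -1.64 for *Obox*. The regulators higher numbered 5, but 8 after quantile normalization and 3 to 7 over all fits without a line (3 without *Tet iTKO* replicate 3). The regulators lower numbered 5, but 1 after quantile normalization, 14 after correction for GC content and length, 3 without *Ctrl* replicate 3, 2 without *Tet iTKO* replicate 2, and 2 to 5 over all fits without a line. The other 2-cell-like genes lower numbered 1, and 0 after quantile normalization or the GC content and length correction and 0 to 1 without a line, and those higher numbered 2, and 1 to 2 without a line (1 without *Tet iTKO* replicate 2, where *Arg2* had too few reads for the test). After the GC content and length correction, 1 neighbour was higher (*S100a11*) and 1 lower (*S100a10*). The causes of these moves were not tested.

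The replicate numbers were not taken as pairs. Lines are from different embryos, and the correlations of same-numbered deviations were 0.0007, -0.0054 and -0.0031. The paper describes independent experiments, and the sample titles do not say whether same-numbered samples shared an experiment. With the number as a block, 7 members were higher and 1 lower, as without it. Over all genes tested, a minimum mean of 50 gave 129 higher and 56 lower, and quantile normalization gave 253 lower. Depth limits the values in *Ctrl*, where 19 of the 27 values of the 9 members that lay higher were at 3 normalized counts or less.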

Other observations

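Between *Oog4* and *Oog2* on chromosome 4 lie 15 further genes of the table, of which 4 carry a symbol of the PRAME family, the leucine-rich repeat family that also holds the oogenesins. While the 3 *Oog* genes were at 0 in all 6 lines, these 15 genes summed to 4, 3 and 3 normalized counts per *Ctrl* line, against 58, 56 and 58 per *Tet iTKO* line. *BC080695* (ENSMUSG00000070618.3, chromosome 4 of GRCm38 from 143551700 to 143573798) had 2, 2 and 3 normalized counts per *Ctrl* line, against 22, 27 and 26 per *Tet iTKO* line. Its log2 change was 2.97 (SE 0.62, limma adjusted p = 0.000245). *Gm13078* had 1, 0 and 0 against 18, 15 and 10, and *Pramef25* had 1, 0 and 0 against 8, 12 and 17, both below the minimum mean for the test. Of the 15 genes, 9 were at 0 in all lines. In 4 of the other 6 every *Tet iTKO* line lay above every *Ctrl* line, beside 17.3% of all genes above 0. These genes were chosen after their values were seen.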
